A study of Homo sapiens with 3 samples.

Results

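The lipocalin genes of chromosome band 9q34 were followed in NB4 cells with and without silencing of ARID1B. The rule took the rows of the deposited count table whose Ensembl identifier carries the symbol LCN2, LCN6, LCN8, LCN10, LCN12, LCN15 or PTGDS, which gave 7 of 57773 rows, all 7 present. The set was chosen by the log2 fold changes of LCN6 and LCN10 under ARID1B silencing, the lowest of the whole comparison, so the members' values are given as a description without a test. NB4, a human cell line, derives from acute promyelocytic leukaemia, and all 3 libraries were polyadenylated RNA from cells kept in RPMI medium with fetal bovine serum. In the control library (n = 1) the cells carried a short hairpin RNA without a target, and in the other 2 libraries (n = 2) a hairpin against ARID1B, hairpin 2 in one and hairpin 3 in the other. ARID1B belongs to the BAF complex, which moves nucleosomes, and helps it bind DNA. Separate cultures or infections are not stated in the labels, so any spread or p-value here measures only the difference between these libraries, which may be technical. The control level of every gene rests on 1 library.

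Lipocalins are small, mostly secreted proteins that fold into a barrel with a pocket for a hydrophobic ligand such as a retinoid, a fatty acid or a siderophore. LCN2 is a siderophore-binding protein of neutrophil specific granules and is best known in blood cells, where it withholds iron from bacteria. PTGDS is the lipocalin-type prostaglandin D2 synthase, an enzyme as well as a carrier. LCN6, LCN8, LCN10 and LCN12 are known mainly from the epididymis, whose epithelium secretes such carriers into the fluid around maturing sperm. Apart from LCN2, the members lie close together in 9q34.3, and LCN2 stands by itself in 9q34.11.

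The starts of LCN6 and LCN10 are shown in full because these are the members that differ most between the libraries. The sequences come from RefSeq (GRCh38.p14), run from position -250 to 50 about the annotated start, and read 5′ to 3′ on the gene's strand, with position 1 at the start. The capitals mark the TATA box letters TATAAA. The window of LCN6 lies at chr9:136748476-136748775 and that of LCN10 at chr9:136742891-136743190, both on the minus strand.
LCN6: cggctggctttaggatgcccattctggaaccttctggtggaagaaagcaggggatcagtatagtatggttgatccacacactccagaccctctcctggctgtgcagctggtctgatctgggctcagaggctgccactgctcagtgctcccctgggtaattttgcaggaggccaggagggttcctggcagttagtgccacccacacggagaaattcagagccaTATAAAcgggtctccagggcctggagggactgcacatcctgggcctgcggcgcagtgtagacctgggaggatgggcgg
LCN10: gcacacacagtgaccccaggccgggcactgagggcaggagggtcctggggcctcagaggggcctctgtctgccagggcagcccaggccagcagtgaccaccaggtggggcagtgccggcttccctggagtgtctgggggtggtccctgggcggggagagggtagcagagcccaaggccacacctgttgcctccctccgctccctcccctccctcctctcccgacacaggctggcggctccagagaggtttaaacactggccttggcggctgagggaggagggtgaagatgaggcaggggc
The other members are shown from 60 bases before to 10 bases after the start, for comparison. Capitals mark TATAAA in LCN15 and a run shared by LCN2 and PTGDS. The positions were chr9:128149393-128149462 for LCN2 (plus strand), chr9:136758234-136758303 for LCN8 (minus), chr9:136952213-136952282 for LCN12 (plus), chr9:136764509-136764578 for LCN15 (minus) and chr9:136977444-136977513 for PTGDS (plus).
LCN8: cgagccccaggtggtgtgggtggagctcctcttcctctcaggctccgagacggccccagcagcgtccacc
LCN15: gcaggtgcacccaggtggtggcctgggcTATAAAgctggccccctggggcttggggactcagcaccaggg
LCN12: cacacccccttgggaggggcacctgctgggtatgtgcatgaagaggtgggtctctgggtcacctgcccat
LCN2: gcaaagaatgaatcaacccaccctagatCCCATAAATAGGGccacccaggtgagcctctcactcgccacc
PTGDS: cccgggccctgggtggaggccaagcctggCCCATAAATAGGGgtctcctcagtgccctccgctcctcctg
TATAAA stood at positions -28 to -23 of LCN6 and -32 to -27 of LCN15, and in neither orientation in the other 5. Over all 35116 promoters of that length in the RefSeq table, 11.5% held it. CCAAT was found once, in LCN2 from position -139 (34.6% of all promoters). GATAA (22.7% of all promoters), CACGTG (7.26%), TGAGTCA (4.95%) and the NF-kB consensus (0.191%) matched none of the 7 on either strand. Nor did the retinoic acid response element in its widely spaced direct repeat form (0.0057%). The 300 bases of LCN10 held none of the motifs searched. In the GENCODE annotation used for exon sharing, an LCN10 exon runs from 5172 to 6872 bases downstream of the LCN6 start. If GENCODE and RefSeq start LCN6 near the same base, the LCN10 window lies within this exon. The window may then be transcribed sequence rather than a promoter of the counted transcripts. Its lack of motifs and its base content therefore cannot be set against those of LCN6. The 3 matches lie in 3 different promoters and do not overlap. LCN2 and PTGDS, which lie in different parts of the band, share the 13-base run CCCATAAATAGGG at nearly the same place, from position -32 in LCN2 and -31 in PTGDS. It occurs in 2 of the 35116 promoters, and it was picked after the sequences were seen as the longest run common to any pair of members. The longest run common to LCN6 and LCN10 had 9 bases. LCN6 had a GC content of 58.7% with 6 CpG dinucleotides and LCN10 of 69% with 7, against medians of 58.7% and 14 over all promoters. None of the 7 had more CpG dinucleotides than that median, and LCN12 had 1.

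LCN6 and LCN10 share exons with an overlapping gene, and they share them with the same one. AL355987.1 (ENSG00000204003) is annotated on the same strand as a transcript that begins in the first exon of LCN6, runs through LCN6 and ends with the last exon of LCN10. It covers 741 of the 1681 exon bases of LCN6 (44.1%) and 1910 of the 4263 exon bases of LCN10 (44.8%). All 2651 of its own exon bases lie in one gene or the other, leaving 0 that belong to it alone, while LCN6 and LCN10 have no exon base in common. PTGDS shares 634 of 2711 exon bases (23.4%) with AL807752.7, which has no row in the table. LCN2, LCN8, LCN12 and LCN15 share none.

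**Figure D1:**
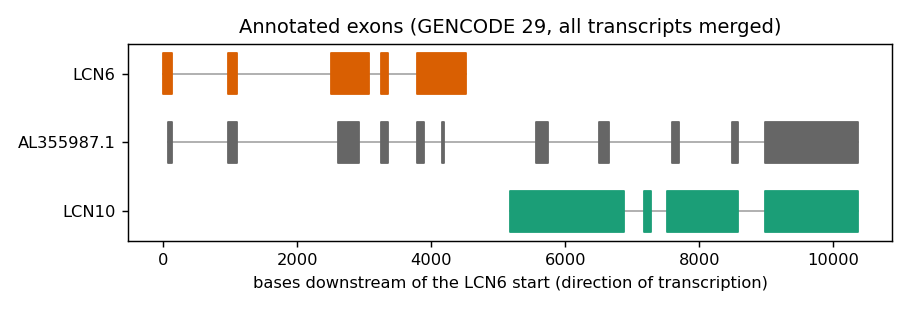
Exons of LCN6, AL355987.1 and LCN10 in GENCODE 29, all transcripts of a gene merged, drawn to scale along the direction of transcription (x axis, bases downstream of the LCN6 start). Each block of AL355987.1 lies under an LCN6 block or above an LCN10 block, so none of its 2651 exon bases is its own.

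A gene with no exon base of its own would have no counts if reads on shared exons had been set aside. AL355987.1 had 582 counts in the control library. Over the whole table, 1033 genes had no exon base that was not also in another gene, on either strand, and 864 of them had counts. Among the 1033 were 489 genes covered wholly by exons on the other strand and by none on their own, of which 395 had counts. Strand-aware counting would also give those genes counts, from reads of their own strand. They therefore tell neither whether strand was used nor how reads on shared exons were handled. Only the rest of the 1033, AL355987.1 among them, can bear on that handling. In this annotation, which is of another build and perhaps another release than the authors', reads on shared exons appear under overlapping genes alike. The rows of LCN6, LCN10 and AL355987.1 are for that reason not 3 separate measurements.

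LCN6 (ENSG00000267206) was counted 451 times in the control library, 13 times under hairpin 2 and 14 times under hairpin 3. Both knockdown libraries lay far below the control and within counting error of each other. In CPM, counts scaled to library size, this was 7.26 in the control and 0.22 ± 0.00594 (SD, n = 2) with ARID1B silenced. Hairpin 2 left 2.98% of the control level, with an exact 95% counting interval of 1.57 to 5.14, and hairpin 3 left 3.09%, with one of 1.68 to 5.24. Such intervals cover counting error only.

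LCN10 (ENSG00000187922) was counted 239 times in the control library, 5 times under hairpin 2 and 9 times under hairpin 3. Again the control was high and both knockdown libraries were low. Its level was 3.85 CPM without ARID1B silencing and 0.114 ± 0.0433 CPM (SD, n = 2) with it. That was 2.16% of control under hairpin 2 (0.695 to 5.11) and 3.75% under hairpin 3 (1.69 to 7.24). The overlapping AL355987.1 went from 582 counts to 16 and 20, or 2.84% and 3.42% of control.

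In the fit over all 20382 genes that passed the filter on low counts, the log2 fold change was -5.05 ± 0.406 (SE) for LCN10, -5.03 ± 0.312 for LCN6 and -4.99 ± 0.284 for AL355987.1. These were the lowest 3 of all genes tested. The next were SIX3 at -4.34, with 23 counts in the control, and LINC01833 at -4.21. These values chose the members and support nothing further. Fewer cells with the transcript and less transcript per cell cannot be told apart in RNA from a whole culture.

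LCN6 and LCN10 summed, which counts no shared exon more than once, held 690 counts in the control, 18 under hairpin 2 and 23 under hairpin 3. The sum stood at 2.69% of control (1.59 to 4.29) and 3.32% (2.09 to 5.02). AL355987.1 had 84.3% as many counts as this sum in the control, 88.9% under hairpin 2 and 87% under hairpin 3. LCN6 made up 65.4% of the sum in the control (exact 95% binomial limits 61.7 and 68.9), 72.2% for hairpin 2 (46.5 and 90.3) and 60.9% for hairpin 3 (38.5 and 80.3). The stretch was thus lower at both ends, and a shift in the split between LCN6 and LCN10 was not detectable at this depth.

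**Figure D2:**
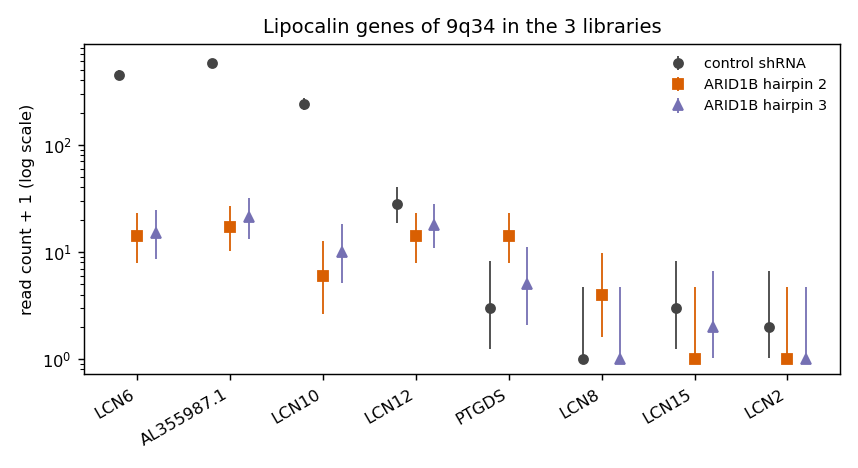
Read counts plus 1 (y axis, log scale) of the 7 lipocalin genes and AL355987.1 in the control library (circles), hairpin 2 (squares) and hairpin 3 (triangles), with exact 95% counting intervals. LCN6, AL355987.1 and LCN10 go from 451, 582 and 239 counts to 20 or fewer, while LCN12 has 13 to 27 and the other members at most 13.

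LCN12 (ENSG00000184925) was the only other member with more than 3 counts in the control library. It had 27 counts in the control, 13 under hairpin 2 and 17 under hairpin 3. Both knockdown libraries were lower than the control, by far less than for LCN6. They stood at 49.7% (23.6 to 99.7) and 62.7% (32.1 to 119) of control, the second interval reaching past the control level, and the log2 fold change was -0.82 ± 0.51 (SE).

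PTGDS (ENSG00000107317) went the other way, with 2 counts in the control, 13 under hairpin 2 and 4 under hairpin 3. The ratio to control was 6.71 under hairpin 2 (exact 95% counting interval 1.52 to 61.3) and 1.99 under hairpin 3 (0.286 to 22.0). The log2 fold change was 2.04 ± 1.03 (SE).

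LCN2, LCN8 and LCN15 were at or under 3 counts in each library, and no fold change is given for them. LCN2 (ENSG00000148346), the neutrophil granule lipocalin, had 1, 0 and 0 counts in the control, hairpin 2 and hairpin 3 libraries. The zeros allow up to 0.0499 and 0.0481 CPM (3 counts). LCN8 (ENSG00000204001) had 0, 3 and 0 counts and LCN15 (ENSG00000177984) had 2, 0 and 1. LCN8 and LCN15 lie directly upstream of LCN6 on the same strand, and neither had more than 2 counts in the control library that held 451 of LCN6.

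Of the 7 members, 4 passed the filter on low counts, LCN6, LCN10, LCN12 and PTGDS. LCN10 passed through the control library alone and PTGDS through hairpin 2 alone. Per kilobase of merged exon, the control levels were 4.32 CPM per kb for LCN6 (exact 95% counting interval 3.93 to 4.74), 0.903 for LCN10 (0.792 to 1.02) and 0.154 for LCN12 (0.102 to 0.224). Then came PTGDS at 0.0119, LCN15 at 0.0112 and LCN2 at 0.0101, with LCN8 at 0, and these 4 did not differ beyond counting error. In the knockdown libraries LCN6 stood at 0.129 and 0.134 CPM per kb, LCN12 at 0.0767 and 0.0967, PTGDS at 0.0797 and 0.0237, and LCN10 at 0.0195 and 0.0339. With ARID1B silenced, the counting intervals of LCN6 and LCN12 overlapped in both libraries. The exons shared with AL355987.1 are part of the length of LCN6 and LCN10 alike.

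ARID1B, the targeted gene, had 5268 counts in the control, 2209 under hairpin 2 and 2234 under hairpin 3, and fell by 1.23 on the log2 scale with a standard error of 0.125 (adjusted p = 1.43e-05 by the quasi-likelihood test of edgeR). Total counts per library were 59997475 to 62954803. Of 6 promyelocyte markers, all tested, 2 passed in edgeR, where 8.7% of all genes tested did. These 2 went opposite ways. Proteinase 3 (PRTN3) rose from 3363 counts to 14914 and 13672, and cathepsin G (CTSG) fell from 6837 to 1672 and 2183. MPO, AZU1 and CD33 had at least 3273 counts in each library, but ELANE, neutrophil elastase, had only 10, 4 and 1. CD34, a stem cell marker, had 0 counts in each library. All 6 epididymis markers (CRISP1, DEFB118, EDDM3A, EDDM3B, SPINT3 and DEFB129) had at most 3 counts, 3 of them 0 throughout, and their sum was 0, 0 and 3 counts in the control, hairpin 2 and hairpin 3 libraries. The 5 epithelial, fibroblast or packaging cell markers summed to 25.6, 19.2 and 24.1 CPM, mostly from EPCAM with 1367, 1075 and 1370 counts. COL6A1 had 152, 30 and 62. Of these 5 markers, 3 were tested and 1 passed in edgeR. The 4 lymphocyte markers summed to 28.9, 51.5 and 35.1 CPM, mostly from NKG7, while CD3E had at most 3 counts. Among these 4, 3 were tested and 1 passed in edgeR. The 5 mature neutrophil markers had at most 6 counts each, CEACAM8 being at 0. The part of these markers in the lipocalin values was not tested.

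The genes around the 9q34.3 members showed nothing of the size seen for LCN6 and LCN10. The window held 58 protein-coding rows in annotation order, from 20 before LCN10 to 20 after PTGDS, and 51 of these were neither members nor AL355987.1. Of the 41 neighbours tested, 4 rose and 1 fell, 12.2% against 8.7% of all genes tested (5.49% higher and 3.21% lower; edgeR with p-values adjusted over all genes, threshold 0.05). Their log2 fold changes ran from -0.93 to 0.93 with a median of -0.03, and the median of all genes was -0.01. The nearest tested neighbours of the LCN6 to LCN10 stretch were FAM69B, with 1687, 1205 and 1337 counts (-0.39 ± 0.142, SE), and TMEM141, with 683, 542 and 597 (-0.24 ± 0.171). Neither passed in edgeR (adjusted p = 0.112 and 0.477). FAM69B shares 40.5% of its exon length with genes on the other strand and TMEM141 16.5% with others on its own, so their counts are uncertain too. Also among the 41, AL355987.3 shares 100% and CCDC183 73.9% of its exon length with other genes. The 41 are thus not all separate measurements.

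UAP1L1, a relative of the UDP-N-acetylglucosamine pyrophosphorylase UAP1, rose the most of these neighbours, from 1478 counts to 2804 and 2742 (0.93 ± 0.14, edgeR adjusted p = 4.21e-04). FUT7, the fucosyltransferase that makes sialyl Lewis x on leukocytes, rose from 2347 counts to 3236 and 3692 (0.58 ± 0.136). RABL6, a Rab-like GTPase, rose from 6939 to 9821 and 9677 (0.51 ± 0.132) and SAPCD2 from 9573 to 13405 and 12845 (0.48 ± 0.136). GPSM1, a modulator of G protein signalling, fell from 497 to 211 and 306 (-0.93 ± 0.22). In FUT7 39.2% and in SAPCD2 22.9% of the exon length is shared with genes on the other strand, so their counts are uncertain. GPSM1 was lost with DESeq2, and it and SAPCD2 were lost where genes had to reach a mean CPM of 1. SAPCD2 was also lost with upper quartile factors.

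**Figure D3:**
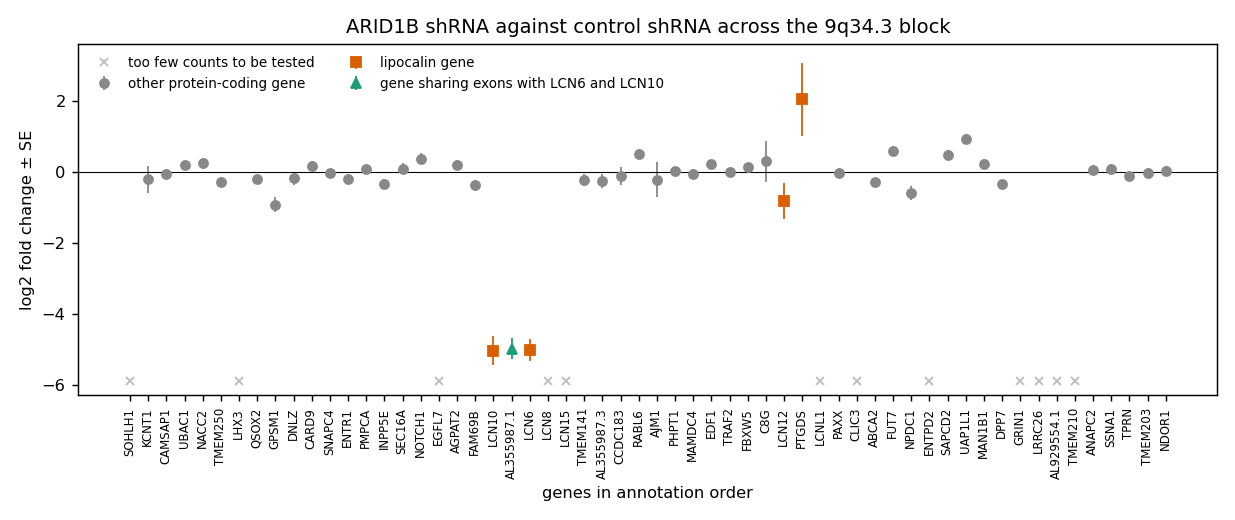
Log2 fold change of ARID1B shRNA (n = 2) against control shRNA (n = 1) with its standard error (y axis) for 58 protein-coding rows of 9q34.3 in annotation order (x axis). Squares are lipocalin members, the triangle is AL355987.1, circles are the other genes and crosses mark rows with too few counts. LCN10, AL355987.1 and LCN6 lie near -5, while the tested neighbours lie between -0.93 and 0.93.

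Around LCN2 all 20 neighbours were tested, and 1 rose, which is 5% against 8.7% of all genes. This was FAM102A, from 834 counts to 1242 and 1259 (0.60 ± 0.154, edgeR adjusted p = 0.021), a call lost with DESeq2 and where a mean CPM of 1 was required (over the alternatives from 0.0129 to 0.47). The genes on either side of LCN2, PTGES2 and C9orf16, had 4780, 5041 and 4731 and 2099, 2008 and 1943 counts. LCN2 thus lay near 0 between genes with at least 1943 counts in each library. AL157935.2, among the 20 neighbours, shares 88.8% of its exon length with other genes. The 20 are thus not all separate measurements.

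Other lipocalins were mostly near 0. Of 13 listed, 5 had 0 counts throughout (LCN1, LCN9, OBP2A, OBP2B and PAEP, carriers of tears, nasal mucus and endometrium among them), and 5 passed the filter. ORM1, an acute-phase plasma glycoprotein, rose from 8 counts to 64 and 36 (2.65 ± 0.635, edgeR adjusted p = 0.0146). It was the 1 call of 5 (20% against 8.7% of all genes tested) and was lost with DESeq2. The list was chosen with earlier results of these data known, and ORM1 passed the filter through the hairpin libraries alone. Its paralogue ORM2, of nearly the same sequence, had 4, 16 and 7, so which of the pair a read came from is uncertain. APOM, a sphingosine 1-phosphate carrier of lipoproteins, had 1224, 1040 and 1032 counts (-0.22 ± 0.149), and RBP4, the plasma retinol carrier, 23, 10 and 16. In 9q34.3 itself, C8G, a chain of complement component C8, had 14, 18 and 16 counts, and LCNL1, next to PTGDS, had 0, 7 and 5.

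Among 8 listed receptors and partners of lipocalins 4 were tested, of which 2 rose and 1 fell, 75% against 8.7% of all genes tested. Their median log2 fold change was 1.06 against -0.01. The list was chosen with earlier results of these data known, and 4 genes are few, so the share supports nothing further. The gelatinase MMP9, which forms a complex with the LCN2 protein in neutrophils, rose from 627 counts to 3430 and 2369 (2.23 ± 0.21, edgeR adjusted p = 7.03e-06). It shares 18.4% of its exon length with a gene on the other strand. STRA6, the cell surface receptor for RBP4, rose from 23 to 206 and 94 (2.72 ± 0.524), a call lost with robust empirical Bayes. RTN4, a reticulon of the endoplasmic reticulum and not an established lipocalin partner, fell from 12724 to 9513 and 8796 (-0.45 ± 0.132), a call lost with robust empirical Bayes, with DESeq2 and where a mean CPM of 1 was required. LMBR1L, a receptor for LCN1, had 2180, 1979 and 2010 counts (-0.11 ± 0.134). The LCN2 receptors SLC22A17 and LRP2 had at most 6 counts and MC4R had 0, so LCN2 and its receptors were at or near 0 alike.

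PTGDS makes prostaglandin D2 from the product of the cyclooxygenases. Of 12 genes of prostaglandin synthesis, breakdown and prostaglandin D2 reception, 7 were tested. Of these 2 rose and 0 fell, 28.6% against 8.7% of all genes tested, with a median log2 fold change of 0.44 against -0.01. The list was chosen with earlier results of these data known, so the share supports nothing further. PTGS1, cyclooxygenase 1, rose from 823 counts to 1925 and 1339 (1.01 ± 0.201, edgeR adjusted p = 0.00393), a call lost with robust empirical Bayes. PTGDR2, the prostaglandin D2 receptor of eosinophils and basophils, rose from 541 to 1776 and 1247 (1.51 ± 0.209, edgeR adjusted p = 1.84e-04). HPGDS, the haematopoietic prostaglandin D synthase, had 2, 25 and 4 counts and was not called (2.80 ± 1.22, SE). It passed the filter on low counts through hairpin 2 alone, where it was high, and is part of the median above. PTGS2, cyclooxygenase 2, had 0 counts in each library, and PTGDR, the other receptor, had 0, 1 and 0.

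Of 9 transcription factors known to act on LCN2, all tested, 1 was called, 11.1% and so near the 8.7% of all genes tested. This was CEBPB, which rose from 1689 counts to 3120 and 2323 (0.71 ± 0.174, edgeR adjusted p = 0.0164), a call lost with robust empirical Bayes and where a mean CPM of 1 was required. CEBPE, which drives specific granule genes in late granulocyte development, had 3615, 4408 and 4668 counts (0.35 ± 0.13) and NFKBIZ, a co-activator of NF-kB, 334, 441 and 354 (0.27 ± 0.216). RELA had 6571, 5809 and 6227 counts and STAT3 6692, 6983 and 6956. These factors were thus present in each library in which LCN2 was at or near 0. Of 16 intracellular lipid binding proteins, a related fold, 4 were tested (FABP3, FABP5, CRABP2 and RBP5). In edgeR 0 of them passed, against 8.7% of all genes tested, and 0 were called by DESeq2. In edgeR 2 of the 4 had an unadjusted p under 0.05, as did 4226 of all 20382 genes tested. These went opposite ways, FABP3 lower (86, 51 and 48 counts) and FABP5 higher (544, 682 and 709). When low counts were not filtered out, no gene of the table passed in edgeR (0 of 32925, with 3218 at an unadjusted p under 0.05), so every call above ends there.

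**Figure D4:**
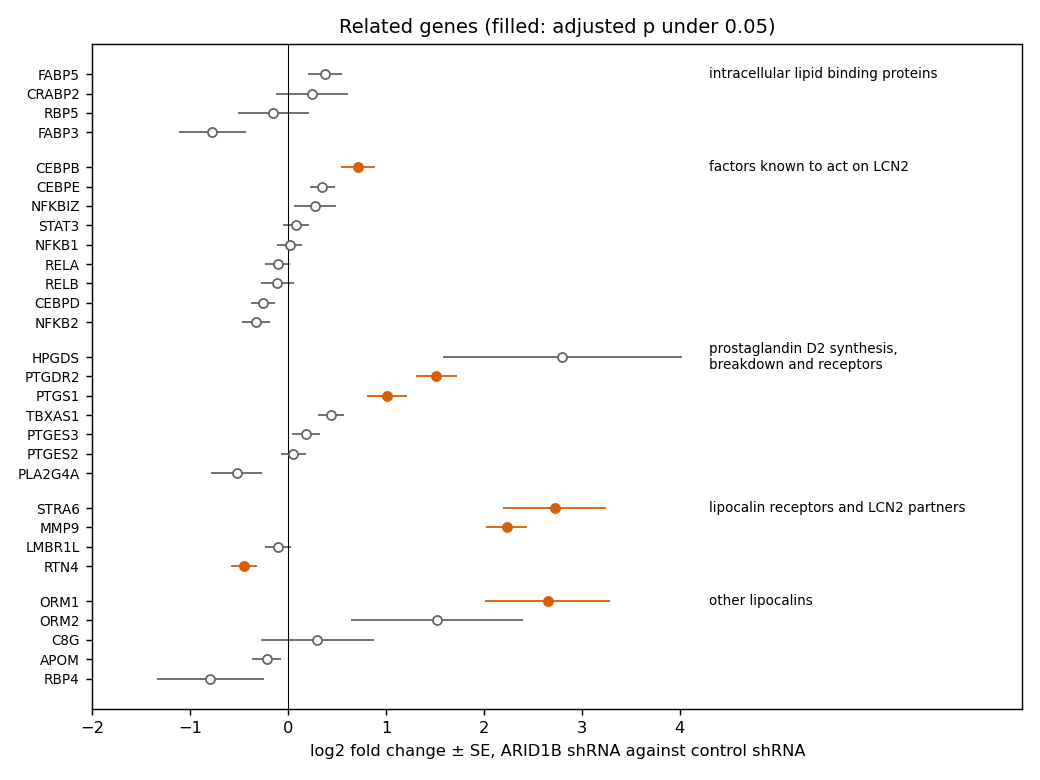
Log2 fold change of ARID1B shRNA against control shRNA with its standard error (x axis) for the tested genes of 5 lists (y axis). Filled points passed at an adjusted p under 0.05, and the largest of these are STRA6 at 2.72, ORM1 at 2.65 and MMP9 at 2.23.

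The genes most like LCN6 over both hairpin ratios, among 14977 genes whose mean CPM reached 1, were AL355987.1, LCN10, LINC01833, WNT7B and CCR2. The measure was the distance between the 2 log2 ratios to control (prior count of 2), which share the control library. AL355987.1 lay 0.14 and LCN10 0.42 from LCN6, where LINC01833 lay 1.21, WNT7B 1.98 and CCR2 2.45 away. AL355987.1 lies wholly in exons of LCN6 and LCN10, so its nearness was given in advance. LCN6 and LCN10 were themselves chosen by their difference from control, so their nearness supports nothing further. For LCN10 the nearest were AL355987.1 at 0.29, LCN6 at 0.42, LINC01833 at 0.86, WNT7B at 1.88 and CCR2 at 2.26. The long non-coding RNA LINC01833 had 415 counts in the control, 12 under hairpin 2 and 32 under hairpin 3, WNT7B, a Wnt ligand, 258, 20 and 23, and CCR2, a chemokine receptor, 257, 18 and 38. On the log2 ratio scale LINC01833 stood at -4.86 under hairpin 2 and -3.62 under hairpin 3, where LCN6 stood at -4.88 and -4.83, so the nearest gene outside the locus was as low as LCN6 under hairpin 2 and less so under hairpin 3.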

How the data were processed

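Read counts per gene, whole numbers without normalization, were deposited by the authors as 1 table of 57773 Ensembl identifiers for 3 libraries. STAR, featureCounts and Cufflinks and the build hg19 are named per the submitters' processing notes. Versions, the annotation release, strand use and the handling of shared exons stay unknown, being not given in the sources used here. GENCODE 29 (GRCh38) named 52338 rows and served for names, exon lengths, exon sharing and gene order. Rows without a name held 1.47% to 1.56% of the counts and stayed in the library sizes. RefSeq promoters (GRCh38.p14) matched 7 of 7 members. Protein sequences were not used here.

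Counts were fitted in edgeR 4.0.16 (R 4.3.3): filterByExpr by group at a minimum count of 10 (20382 genes), TMM factors (1.0074, 1.0024 and 0.99029 for control, hairpin 2 and hairpin 3), estimateDisp, then glmQLFit with legacy = FALSE and glmQLFTest, two-sided, with Benjamini-Hochberg adjustment over all genes and a threshold of 0.05. The 2 hairpin libraries and the control leave 1 residual degree of freedom, and the lone control was assumed to vary as the hairpins do. SE is the log2 fold change over the square root of F. CPM used TMM-scaled library sizes. At 3 counts a gene has 0.0481 to 0.0499 CPM. Intervals are exact binomial or Poisson and cover counting error only. The fit was tested on simulated data. DESeq2 1.42.0 and other settings were alternatives.

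The members and all lists were chosen with earlier results of these data known. Named were all members, genes sharing their exons, ARID1B, the called genes of each list and of the neighbours, and the 5 genes nearest to LCN6 and to LCN10. Other genes of a list are named for their role.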

Additional observations from a re-analysis of the deposited data

How the results depend on the processing

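The fall of ARID1B kept its direction under every alternative tried. Of the alternatives with a test, it lost the threshold in 1, the fit without a filter on low counts (log2 fold change -1.23, adjusted p = 0.465). That setting tested 32925 genes and called 0, so each count of calls became 0 for neighbours in 9q34.3 (from 5), LCN2 neighbours (1), other lipocalins (1), receptors and partners (3), prostaglandin genes (2) and factors acting on LCN2 (1), and the cause was not tested. Requiring a mean CPM of 1, there were 3 called 9q34.3 neighbours and 0 LCN2 neighbours, other lipocalins and LCN2 factors. That setting left 1 of 5 other lipocalins to test. With DESeq2 0 LCN2 neighbours and 0 other lipocalins passed. With robust empirical Bayes 1 receptor or partner, 1 prostaglandin gene and 0 LCN2 factors passed. The cause of these changes was not tested. Over all genes 1774 were called, against 1052 by DESeq2 and 960 when a mean CPM of 1 was required. Higher genes made up 63.1% of the calls, 53.8% of them under upper quartile scaling and 73.7% in DESeq2.

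The mean log2 ratio of LCN6 to control was -4.85, and -4.90 with upper quartile factors, -4.99 with a prior count of 0.5 and -4.93 summed with AL355987.1, which counts shared exons again. Without one hairpin it was -4.88 to -4.83 for LCN6, -5.07 to -4.46 for LCN10, -0.91 to -0.61 for LCN12 and 0.58 to 1.94 for PTGDS, and -1.24 to -1.21 for ARID1B. Left with 1 library on each side, no count of calls could be had. No paired analysis was possible because the groups share no replicate number. Depth limits LCN2, LCN8, LCN15 and PTGDS, whose counts of 13 or fewer leave wide intervals.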
